A study of Arabidopsis thaliana with 24 samples.

Results

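Transcript levels were compared between the libraries labelled nrp1 nrp2 / FyPP3DN, called the labelled combination here, and those of the wild type (WT), over both treatments at once. The 12 libraries, out of 24 in the series, were chosen by their genotype and treatment labels alone. They comprise 3 WT and 3 labelled-combination libraries without abscisic acid (ABA) and 3 of each with it. All were made from whole *Arabidopsis thaliana* seedlings in the Columbia 0 background, grown vertically and 5 days old when they received 5 µM ABA, or no treatment, for 24 h. The series' own design text differs, with 6 days before the treatment, and the labels do not settle this. The label joins the double mutant nrp1 nrp2 with FyPP3DN, a dominant-negative form of the phosphatase subunit FyPP3. The labels name neither the mutated loci, nor the alleles, nor the promoter that drives the transgene, nor how many independent lines were used. They also do not say that replicates came from separate cultures, so each p-value reflects only the spread among these libraries, which may be technical.

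As background, ABA is the hormone that holds back growth and germination when water is short, and it switches on late seed and stress genes. FyPP1 and FyPP3 are catalytic subunits of the phosphatase PP6, which acts on ABA signalling proteins and on auxin carriers. The title of the series places NRP upstream of FyPP3. DCD-domain (development and cell death) proteins include the asparagine-rich N-rich proteins, which were first described in soybean and are tied to stress and cell death.

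Levels are FPKM, in which the fragments of a gene are divided by its length and by the number of fragments mapped in that library. Differences are on the log2(FPKM + 1) scale, which understates the change of low genes, and are given ± SE. The fragments behind a library, read from the steps of its values, numbered 17.41 M to 27.4 M, and between 17998 and 18454 genes reached an FPKM of 1. In each of the 4 groups replicate 1 was rich in plastid-encoded transcripts, with 9.61% to 16.8% of the summed FPKM, while replicates 2 and 3 held 0.0484% to 0.0839%. The first and second principal components, with 38.4% and 37.6% of the variance, mixed this library type with treatment. Genotype accounted for 76.6% of the third, which held 5.57%. The seedling label matched its markers with 1 exception. The 28 photosynthesis genes summed to at least 85670 FPKM in every library, and 7 of 8 flower genes stayed below 1 in all 12. The other flower gene, SEP3, read 13.13, 7.65 and 11.17 in WT without ABA and 10.53, 9.17 and 11.1 in the labelled combination without it. The combined label was met in part only, since a gene low in nrp1 nrp2 was also low here, whereas FYPP3, raised in FyPP3DN, was at the WT level.

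Few genes separated the labelled combination from WT. Of 19035 genes tested, 37 had a limma adjusted p under 0.05, which is 0.194%. The 20 higher genes were 0.105% of those tested and the 17 lower genes 0.0893%. Quantile normalization of the libraries gave 27 higher and 15 lower. All 37 had the same direction in both treatments, and in all 37 the 3 labelled-combination libraries lay entirely above or entirely below the 3 WT libraries within each treatment. Such a separation was seen for 260 genes tested, or 1.37%. The 37 were selected on these same libraries over both treatments, so the shared direction and the separation are no separate support. The median absolute log2 difference of the 37 was 0.81, and 12 exceeded 1. Of these 12, the 5 higher genes were bHLH39, an iron-deficiency regulator, RPN12b, the neighbour of a DCD-domain gene, and 3 transcripts at or near 0 in WT. The 7 lower ones were 5 noncoding RNA genes, the other DCD-domain gene and a peroxidase-family gene.

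**Figure D1:**
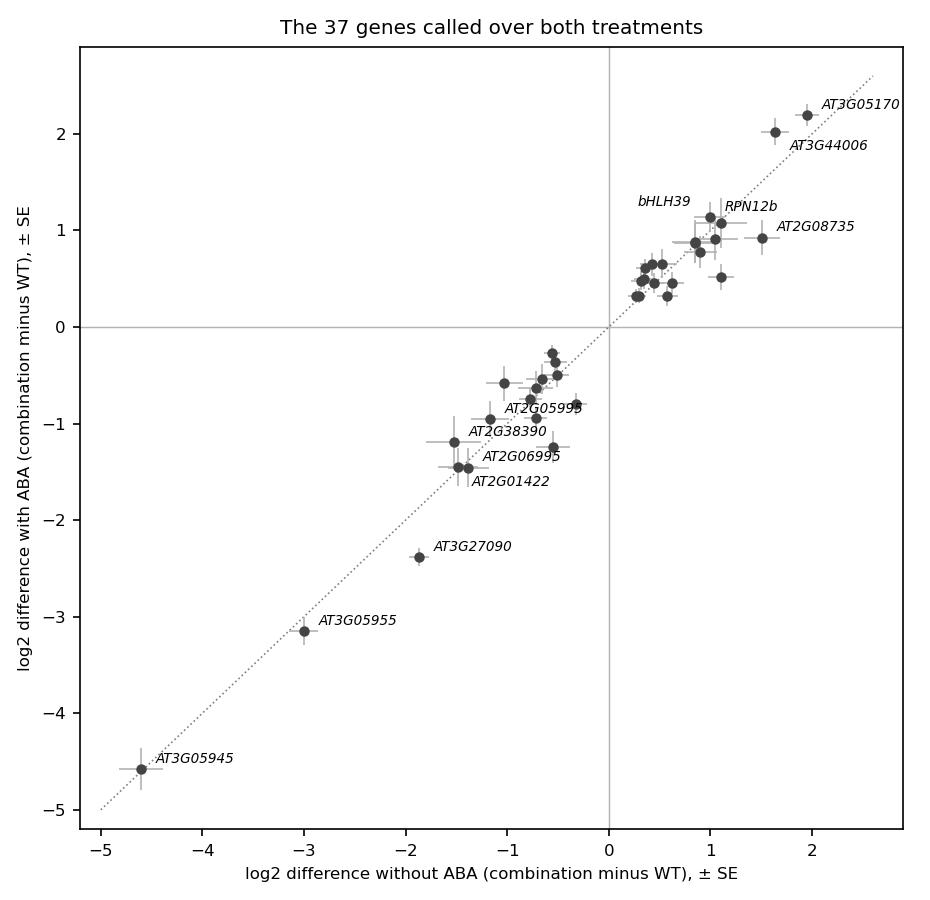
Each point is 1 of the 37 genes called over both treatments, with its log2(FPKM + 1) difference from WT without ABA on the x axis and with ABA on the y axis, bars giving the standard error and the dotted line marking equal differences. Genes beyond 1 in either direction over both treatments are named, from AT3G05945 at −4.59 to AT3G05170 at 2.07, and each of the 37 points has the same sign on both axes.

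With the replicate number as a block 110 genes were called, or 0.578%, with 59 higher and 51 lower, and the 37 were among them. With the library type as a block 103 were called, or 0.541%, again with all 37. The plastid-poor libraries alone gave 17 calls, or 0.091%, and 14 of these were among the 37. In the plastid-rich libraries, 1 per group, 28 of the 37 could be fitted and all 28 had the same direction. The lack of overlap within each treatment had already fixed that direction, so it is no separate support. When libraries were left out 1 at a time, 14 of the 37 stayed called each time. The other 23 lost their call in 1 to 11 of the 12 fits with 1 library fewer, and all 23 lost it without replicate 2 of WT with ABA.

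The loci that the label may name came first. AT3G27090, a DCD-domain gene on chromosome 3 from 9989511 to 9991903 (TAIR10.1), read 67.4, 65.8 and 69.2 FPKM in WT without ABA and 78.2, 69.5 and 70.7 with it. In the labelled combination it read 16.5, 19.7 and 17.1 without ABA and 12.03, 14.9 and 12.6 with it. The groups were far apart, and the labelled combination stood at 26.4% of the WT mean without ABA and 18.1% with it. The difference over both treatments was −2.13 ± 0.10 (limma adjusted p = 4.55e-08). The nrp1 nrp2 libraries read 18.7 to 21.1 without ABA and 12.7 to 13.8 with it, and the labelled combination did not differ from them beyond the spread (−0.09 ± 0.07, adjusted p = 0.742).

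AT5G42050, the other DCD-domain gene, on chromosome 5 from 16815310 to 16817346, was higher instead. WT read 31.7, 29.6 and 31.4 FPKM without ABA and 52.5, 38.9 and 40.3 with it. Levels in the labelled combination were 71.1, 74.0 and 58.5 without ABA and 68.1, 67.5 and 54.0 with it. All 6 of its libraries exceeded the highest WT library, with a difference of 0.81 ± 0.12 (adjusted p = 0.0156). Without replicate 2 of WT with ABA that p was 0.0548. Within treatments the rise was called without ABA (1.105 ± 0.13, adjusted p = 0.0063, and up to 0.0609 without replicate 2 of WT or of the labelled combination) and missed the threshold with ABA (0.52 ± 0.13, adjusted p = 0.446). The difference between these effects was not called. In nrp1 nrp2, AT5G42050 read 44.03 to 69.73 without ABA, above WT, and 48.85 to 64.76 with it, overlapping WT. It overlapped the labelled combination in both treatments. A gene-level FPKM does not show whether a transcript is intact or where an insertion lies.

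The neighbour of AT5G42050 rose as well. RPN12b (AT5G42040), annotated as a subunit of the regulatory particle of the proteasome, lies on the opposite strand from 16813565 to 16814749, head to head with AT5G42050 and 560 bases away. It read 1.73, 1.3 and 1.35 FPKM in WT without ABA and 1.19, 2.03 and 1.82 with it. In the labelled combination it read 3.12, 4.37 and 4.25, then 4.42, 5.42 and 4.77. The groups did not overlap, the means were 2.68 and 2.899 times those of WT, and the difference was 1.07 ± 0.11 (adjusted p = 0.000305). In nrp1 nrp2 it read 2.98 to 5.24, not different from the labelled combination beyond the spread (0.16 ± 0.10, adjusted p = 0.673). RPN12b was the only call among the 40 tested genes nearest to AT5G42050, 20 on each side. Around AT3G27090, FYPP3 and MMZ3 the same windows held none. Over all genes tested 0.194% were called. Of 381 stretches of 50 neighbouring tested genes 348 held no call, so an empty window is the usual case.

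Part of the stretch between RPN12b and AT5G42050 is shown because the genes on both sides rose. These are the 250 bases before the annotated start of AT5G42050 (RefSeq, TAIR10.1, chr5:16815060-16815309, plus strand). Capitals mark CANNTG, the E-box that basic helix-loop-helix (bHLH) factors can bind.
AT5G42050: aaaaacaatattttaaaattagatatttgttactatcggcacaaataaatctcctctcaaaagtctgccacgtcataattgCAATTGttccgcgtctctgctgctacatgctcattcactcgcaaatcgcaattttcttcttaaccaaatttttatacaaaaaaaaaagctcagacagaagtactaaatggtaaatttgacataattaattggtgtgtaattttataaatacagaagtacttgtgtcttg

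The window holds a single CANNTG and none of its G-box form CACGTG. It also holds 1 match to ACGTG, the core of ABA-responsive elements, searched on both strands, as do 22.9% of 27431 promoters of this length.

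FYPP3 itself was not higher in the labelled combination. FYPP3 (AT3G19980, chromosome 3) read 18.3, 15.7 and 12.7 FPKM in WT without ABA and 16.7, 16.0 and 16.4 with it. Those of the labelled combination were 13.5, 12.9 and 12.8, then 18.4, 17.5 and 14.8, overlapping WT (−0.09 ± 0.09, adjusted p = 0.857). The FyPP3DN libraries read 46.7, 34.5 and 85.2 without ABA and 24.9, 22.5 and 29.3 with it. Every one of them was above every library of the labelled combination, whose difference from FyPP3DN was −1.23 ± 0.25 (adjusted p = 0.0134). MMZ3, a ubiquitin-conjugating enzyme variant, told the same groups apart. It read 10.5 to 13.4 FPKM in FyPP3DN and 45.4 to 56.0 in the labelled combination, against 48.4 to 58.9 in WT (−0.06 ± 0.05 from WT, adjusted p = 0.81). At both genes the libraries carrying the combined label overlapped WT and not FyPP3DN. Whether the transgene was present, silent or outside what was counted was not tested.

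**Figure D2:**
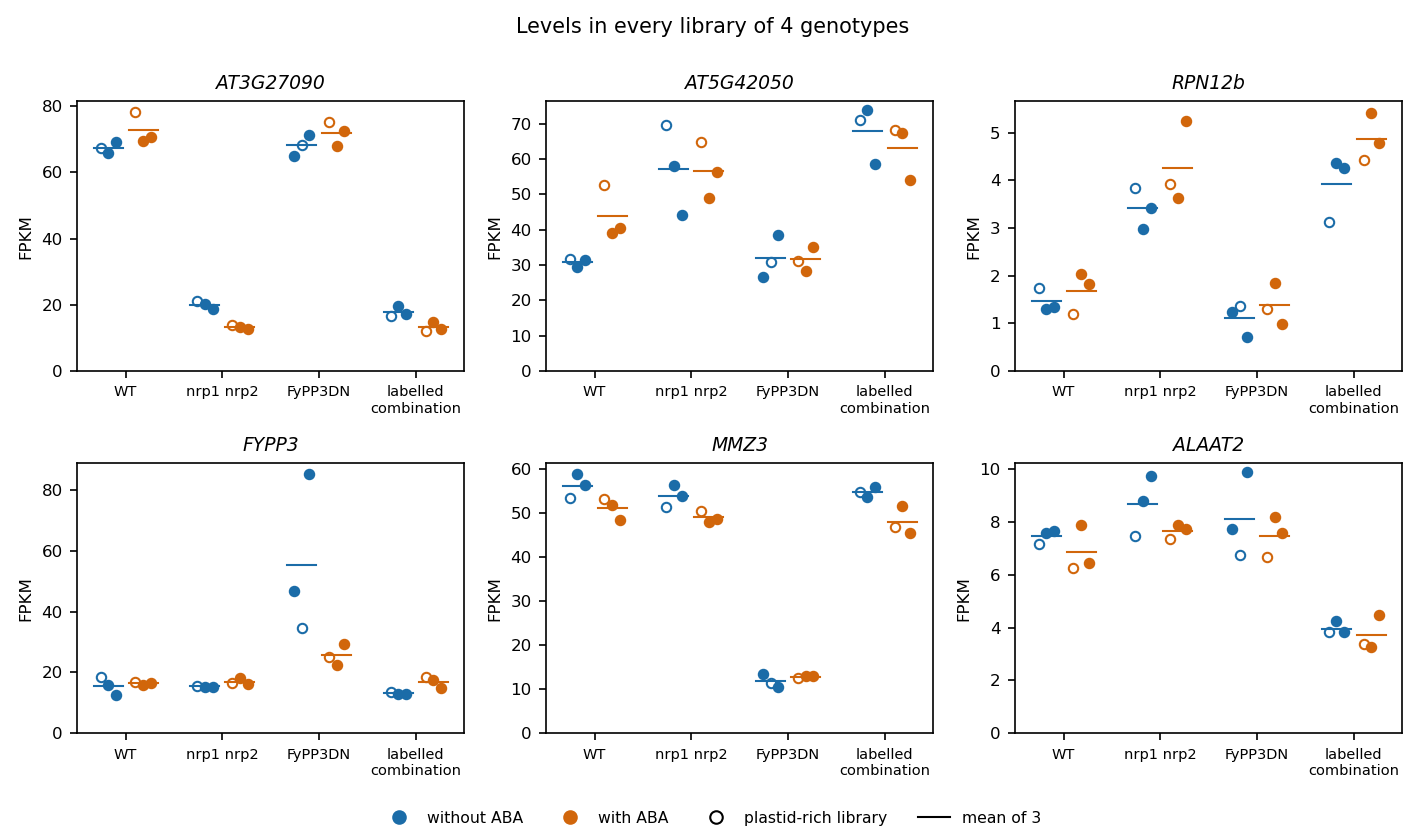
FPKM in every library of the 4 genotypes for 6 genes, with blue points without ABA, orange points with ABA, open points for plastid-rich libraries and bars for the mean of 3. The labelled combination is low for AT3G27090 and high for RPN12b as nrp1 nrp2 is. For AT5G42050 it is above WT. There nrp1 nrp2 is above WT without ABA, at 44.03 to 69.73, and overlaps WT with ABA, at 48.85 to 64.76. In both treatments nrp1 nrp2 overlaps the labelled combination for AT5G42050. The labelled combination overlaps WT for FYPP3 and MMZ3, and is lower than the 3 other genotypes for ALAAT2.

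Other genes that the names could refer to did not pass the test. The reference table gives the symbols NRP1 and NRP2 to AT1G74560 and AT1G18800, NAP1-related histone chaperone genes. NRP1 averaged 87.3 FPKM in WT and 79.1 in the labelled combination without ABA (−0.06 ± 0.09 over both treatments, adjusted p = 0.922), and NRP2 33.3 and 28.8 (−0.09 ± 0.09, adjusted p = 0.856). FYPP1, the second PP6 catalytic subunit, gave −0.11 ± 0.05 (adjusted p = 0.627), although its libraries did not overlap those of WT within either treatment. None of the 15 PP6 and PP2A subunit genes tested was called.

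ALAAT2 (AT1G72330), an alanine aminotransferase that moves an amino group between alanine and glutamate, fell beside them. WT read 7.15, 7.57 and 7.67 FPKM without ABA and 6.26, 7.90 and 6.46 with it. The labelled combination read 3.82, 4.23 and 3.83, then 3.37, 3.27 and 4.48. It stood at 53.1% of the WT mean without ABA and 53.9% with it, with a difference of −0.76 ± 0.08 (adjusted p = 0.000547). Both other mutant lines were above it, nrp1 nrp2 at 7.37 to 9.76 and FyPP3DN at 6.67 to 9.89. The labelled combination differed from nrp1 nrp2 by −0.92 ± 0.08 and from FyPP3DN by −0.86 ± 0.10, both with an adjusted p of 0.00111. None of these 3 calls was lost when any single library was left out. ALAAT2 overlaps the start of AT1G72340, so a few reads could be shared.

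The other falls with a symbol were small. ESM1, which directs glucosinolate breakdown towards isothiocyanates, averaged 214 FPKM in WT and 148 in the labelled combination without ABA, and 280 and 217 with it (−0.44 ± 0.08, adjusted p = 0.0421). PRXCB, a cell wall peroxidase of the oxidative burst, averaged 21.3 and 14.1, then 46.6 and 38.5 (−0.42 ± 0.07, adjusted p = 0.0279). The call of ESM1 was lost in 11 of the 12 fits with a library left out and that of PRXCB in 8.

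Further falls are known by locus number alone and were chosen after their values were seen. The peroxidase-family gene AT2G38390 read 16.5, 32.7 and 28.0 FPKM in WT without ABA and 18.3, 29.4 and 17.1 with it. In the labelled combination it read 5.45, 9.65 and 9.40, then 7.62, 10.06 and 8.29. All its libraries were below all of WT (−1.36 ± 0.19, adjusted p = 0.00879), and the call held whichever library was left out. The chitinase-family gene AT2G43620 averaged 30.4 and 20.5, then 39.0 and 16.3 (−0.89 ± 0.15, adjusted p = 0.0302). The late embryogenesis abundant family gene AT3G02480 rose with ABA in WT, from a mean of 5.69 to 66.9, and went from 2.29 to 44.4 in the labelled combination (−0.81 ± 0.14, adjusted p = 0.0358). The calls of AT2G43620 and AT3G02480 were lost in 8 and 10 of the 12 fits with a library left out.

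Noncoding RNA genes were 7 of the 37, with 6 lower and 1 higher. Calls fell on 1.76% of 284 long noncoding and 1.98% of 101 other noncoding RNA genes tested, against 0.163% of protein-coding genes. Of the 7, AT3G05955, AT2G01422, AT2G06995 and AT2G05995 passed the filter on low values through WT and AT2G08735 through the labelled combination. A gene that enters this way had to be higher in that genotype. The higher shares are therefore no support for an effect on noncoding genes as a class. These loci too were chosen after their values were seen. AT3G05945, on chromosome 3 from 11510090 to 11510510, read 67.0, 41.2 and 46.1 FPKM in WT without ABA and 48.4, 33.1 and 49.6 with it. The labelled combination read 0.78, 1.09 and 1.53, then 0.60, 1.35 and 0.66, 2.204% and 1.99% of the WT means (−4.59 ± 0.15, adjusted p = 1.31e-09). It was as low in nrp1 nrp2, at 0.00 to 0.84, and read 22.3 to 87.3 in FyPP3DN.

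AT3G05955, from 11586005 to 11586548, was low in all 3 mutant lines. It read 10.2 to 17.2 FPKM in WT, 0.28 to 1.28 in the labelled combination (−3.08 ± 0.10, adjusted p = 1.31e-09), 0.29 to 1.31 in nrp1 nrp2 and 0.17 to 0.69 in FyPP3DN. AT2G01422 and AT2G06995 had the same pattern at lower levels, with WT group means of 2.05 to 2.76 and no mutant group mean above 0.38. AT3G06355 fell from WT means of 117 and 90.12 to 70.6 and 46.2 (−0.83 ± 0.08, adjusted p = 0.000259). It overlaps an annotated 5.8S ribosomal RNA gene, so its reads cannot be assigned with certainty, and the labels offer poly(A) selection and rRNA depletion as alternatives without tying either to a library.

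Other transcripts were near 0 in WT and present in the labelled combination, through which they passed the filter. AT3G05170, annotated as a phosphoglycerate mutase family member, read 0.00 to 0.16 FPKM in WT, 2.95, 3.06 and 2.94 in the labelled combination without ABA and 3.68, 4.55 and 3.90 with it (2.07 ± 0.09, adjusted p = 2.26e-08). It was as high in nrp1 nrp2, at 2.88 to 4.36, and in FyPP3DN, at 3.15 to 4.75. AT3G44006, an uncharacterized protein, was listed at 0 in all 6 WT and all 6 FyPP3DN libraries. It read 1.66, 2.53 and 2.21 in the labelled combination without ABA and 3.37, 2.79 and 3.06 with it (adjusted p = 8.97e-07), and 1.99 to 3.81 in nrp1 nrp2. The noncoding AT2G08735 read 0.11 to 0.77 in WT and 1.69 to 3.25 in the labelled combination (1.22 ± 0.15, adjusted p = 0.00227).

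By position, 16 of the 37 genes lay on chromosome 3, or 0.427% of those tested there, against 0.0691% to 0.243% on the other 4. They were spread along it. The called gene nearest to AT3G27090 was AT3G05945, 1.52 Mb away, with 151 tested genes between them. Of 381 stretches of 50 neighbouring tested genes, 348 held no call, 29 held 1 and 4 held 2.

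Iron-deficiency genes were the listed pathway with calls over both treatments. The Ib bHLH factors bHLH38, bHLH39, BHLH100 and BHLH101 pair with the factor FIT and switch on iron reduction and uptake in the root. Of 17 members tested on the iron list, 2 were higher, bHLH39 and BHLH101, and none was lower. Over all genes tested 0.105% were higher and 0.0893% lower. The median difference of the 17 was 0.26, against −0.02 over all genes tested. Above 0 were 12 of the 17, and 44.0% of all genes tested. With the replicate block 4 of 17 were higher, then with bHLH38 and BHLH100, where 0.31% of all genes tested were higher.

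The promoters are shown because these 4 factors are close relatives with higher means in the labelled combination. They are the 250 bases before each annotated start (RefSeq, TAIR10.1), all on the minus strand: bHLH38 at chr3:21085246-21085495, bHLH39 at chr3:21087711-21087960, BHLH100 at chr2:17199455-17199704 and BHLH101 at chr5:1139634-1139883. Capitals mark CANNTG, searched on both strands, of which CACGTG is one form.
bHLH38: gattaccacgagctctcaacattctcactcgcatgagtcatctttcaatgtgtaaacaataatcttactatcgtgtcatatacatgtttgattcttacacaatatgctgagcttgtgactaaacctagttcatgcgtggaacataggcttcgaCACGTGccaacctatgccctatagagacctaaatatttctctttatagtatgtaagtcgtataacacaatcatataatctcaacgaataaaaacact
bHLH39: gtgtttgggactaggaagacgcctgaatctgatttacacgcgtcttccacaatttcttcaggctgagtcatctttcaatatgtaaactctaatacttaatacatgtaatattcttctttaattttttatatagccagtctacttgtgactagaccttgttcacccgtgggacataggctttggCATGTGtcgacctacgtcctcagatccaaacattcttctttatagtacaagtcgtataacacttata
BHLH100: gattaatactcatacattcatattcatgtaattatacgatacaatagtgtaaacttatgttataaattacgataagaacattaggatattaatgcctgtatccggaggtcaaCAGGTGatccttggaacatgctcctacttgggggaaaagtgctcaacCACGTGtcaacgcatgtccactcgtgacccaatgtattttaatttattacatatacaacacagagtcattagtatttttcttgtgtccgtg
BHLH101: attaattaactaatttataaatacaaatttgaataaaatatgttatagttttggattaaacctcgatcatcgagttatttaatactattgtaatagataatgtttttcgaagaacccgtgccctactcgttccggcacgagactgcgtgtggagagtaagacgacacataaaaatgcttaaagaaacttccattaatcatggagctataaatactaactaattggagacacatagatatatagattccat

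The bHLH38 and BHLH100 windows each hold a CACGTG, 97 and 91 bases before the start, and the bHLH39 window holds CATGTG at 67 bases. The BHLH101 window holds no CANNTG. Of 27431 promoters of this length, 6.49% hold CACGTG and 55.3% hold CANNTG, and the matches describe the windows only.

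bHLH39 (AT3G56980) read 0.98, 2.94 and 1.86 FPKM in WT without ABA and 21.6, 14.6 and 12.8 with it. In the labelled combination it read 6.38, 4.35 and 4.64, then 32.1, 45.1 and 28.7. Its libraries lay above those of WT in both treatments (1.09 ± 0.17, adjusted p = 0.0278). BHLH101 (AT5G04150) read 0.91, 1.65 and 1.21 in WT without ABA and 9.15, 5.31 and 4.91 with it. In the labelled combination it read 3.71, 3.39 and 2.18, then 11.5, 13.3 and 11.9 (0.86 ± 0.14, adjusted p = 0.0302). Levels of both were higher with ABA than without it in either genotype, and the labelled combination was above WT at each level. The FyPP3DN libraries were above WT for bHLH39 too, at 7.30, 4.26 and 4.75 without ABA and 24.2, 21.95 and 26.2 with it. For BHLH101 they read 1.72 to 2.66 without ABA, above WT, and 7.86 to 10.3 with it, overlapping WT. In nrp1 nrp2 bHLH39 read 1.80 to 2.12 and 12.4 to 27.3, overlapping WT.

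bHLH38 (AT3G56970), the tandem neighbour of bHLH39, averaged 0.66 ± 0.21 (SD, n = 3) FPKM in WT and 2.25 ± 1.16 in the labelled combination without ABA, and 18.8 ± 10.7 and 38.5 ± 6.196 with it. Its difference of 1.02 ± 0.22 (SE) had a limma adjusted p of 0.113, and 0.0267 with the replicate block. BHLH100 (AT2G41240) averaged 1.83 ± 0.83 (SD, n = 3) and 4.2 ± 1.58, then 20.2 ± 12.1 and 39.0 ± 6.44. Its difference of 0.96 ± 0.24 (SE) had a limma adjusted p of 0.204, and 0.017 with the block. In both, the plastid-rich replicate 1 of WT with ABA was the highest of its group, at 31.0 and 34.0 FPKM, and for BHLH100 it lay within the range of the labelled combination.

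ORG1 (AT5G53450), named like bHLH38 and bHLH39 for its response to the factor OBP3, was not on the list and was higher too. It read 37.4, 49.5 and 44.7 FPKM in WT without ABA and 145, 112 and 124 with it. The labelled combination read 62.0, 55.8 and 59.1, then 191, 220 and 186, without overlap (0.54 ± 0.09, adjusted p = 0.0291). FRO3, a mitochondrial ferric reductase, was called with ABA, at means of 29.7 in WT and 44.4 in the labelled combination (0.56 ± 0.09, adjusted p = 0.0466), and lost that call in 11 of the 12 fits with a library left out. Its change with ABA was not shown to differ between the genotypes.

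The remaining iron genes did not pass the test. IRT1, the root iron transporter, averaged 3.34 FPKM in WT and 9.02 in the labelled combination without ABA and 1.48 and 3.997 with it (1.24 ± 0.32, adjusted p = 0.225). FRO2, the root ferric reductase, averaged 0.54 and 1.70, then 0.28 and 0.71 (0.64 ± 0.17, adjusted p = 0.254). BTS, a ubiquitin ligase that restrains iron uptake, gave 0.42 ± 0.09 (adjusted p = 0.113). FER4, which encodes the iron store ferritin, gave −0.49 ± 0.11 (adjusted p = 0.14), and FIT, listed as FRU, gave 0.08 ± 0.13 (adjusted p = 0.939).

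The calls on these factors rested on few libraries. That of bHLH39 was lost in 7 of the 12 fits with a library left out (adjusted p up to 0.0887), and those of BHLH101 and ORG1 in 9 (up to 0.0922 and 0.0795). Levels of root marker genes also varied between libraries. The 11 root hair genes summed to 4.40 to 29.7 FPKM in WT and 10.2 to 15.1 in the labelled combination without ABA, and to 26.3 to 30.65 and 15.1 to 33.4 with it. The 11 other root genes summed to 50.3 to 93.1 and 61.0 to 74.8, then 58.8 to 68.1 and 53.0 to 66.5. Of the 9 root hair and 11 other root genes tested, 1 and 2 were above 0 and none was called. Their part in the iron result was not tested, and in whole seedlings fewer cells of a type and less RNA per cell cannot be told apart.

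**Figure D3:**
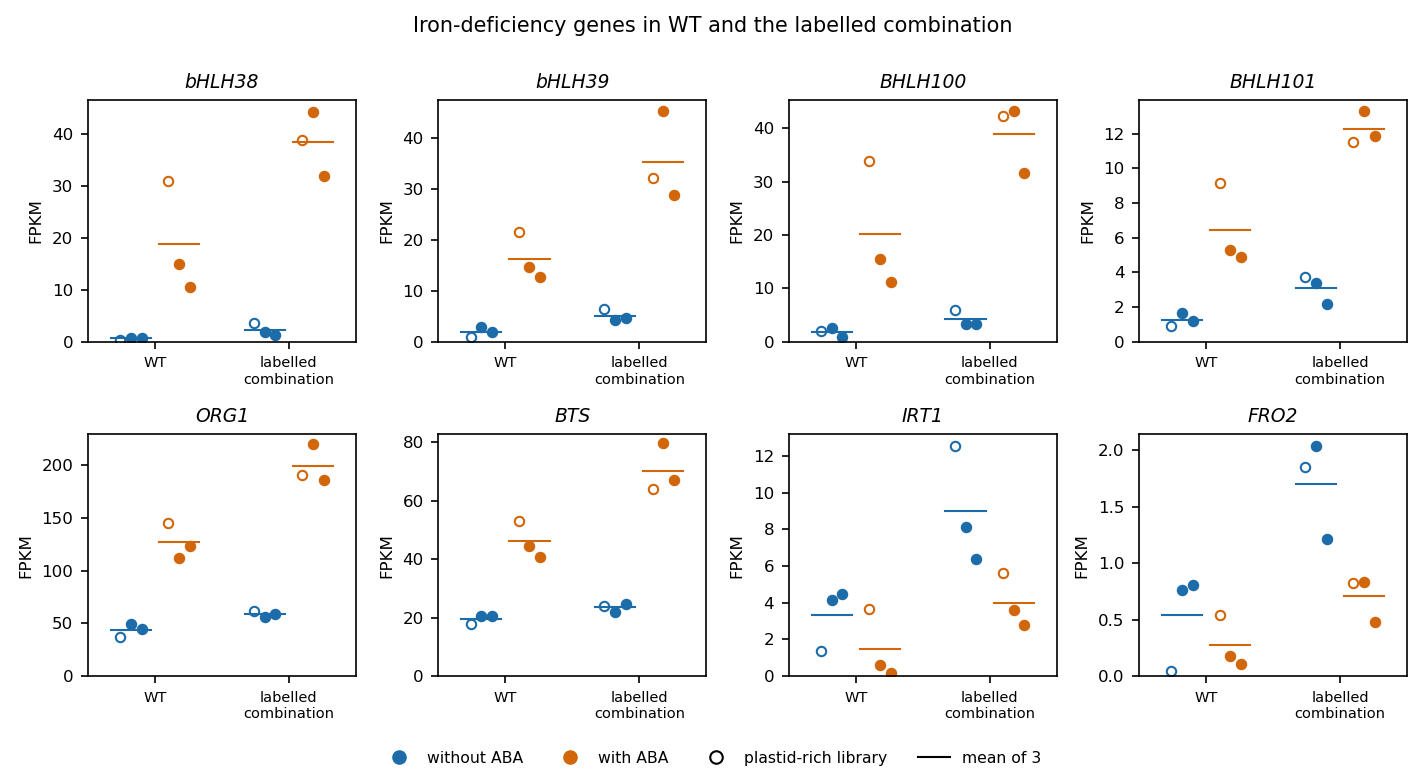
FPKM of 8 iron-deficiency genes in the 12 libraries, WT on the left and the labelled combination on the right of each panel, with blue points without ABA, orange points with ABA, open points for plastid-rich libraries and bars for the mean of 3. For bHLH39, BHLH101 and ORG1 the labelled combination lies above WT in both treatments, while BHLH100 overlaps with ABA, where the plastid-rich WT library reads 34.0.

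The other rises with a symbol were those of HKL1, FBA5, scpl25 and OCT3. HKL1, a hexokinase-like protein, read 11.6, 11.6 and 12.8 FPKM in WT without ABA and 8.81, 9.21 and 8.77 with it. In the labelled combination it read 16.1, 17.1 and 13.9, then 13.4, 15.3 and 14.1 (0.49 ± 0.07, adjusted p = 0.0146, and 0.0548 without replicate 2 of WT with ABA). FBA5, a fructose-bisphosphate aldolase of glycolysis, averaged 223 and 332, then 183 and 228 (0.45 ± 0.08, adjusted p = 0.0421). The serine carboxypeptidase-like gene scpl25 averaged 19.2 and 26.5, then 18.7 and 26.2 (0.45 ± 0.07, adjusted p = 0.0272). OCT3, an organic cation and carnitine transporter, averaged 21.0 and 26.9, then 11.9 and 17.1 (0.42 ± 0.07, adjusted p = 0.0386). Means of these 4 genes were 1.25 to 1.59 times those of WT, and their libraries did not overlap those of WT. The call of HKL1 was lost in 1 of the 12 fits with a library left out, that of FBA5 in 11 (adjusted p up to 0.132), that of scpl25 in 6 (up to 0.0887) and that of OCT3 in 10 (up to 0.109). Each of the 4 was lost without replicate 2 of WT with ABA.

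Other rises among genes without a symbol, chosen after their values were seen, included AT5G02540, a Rossmann-fold protein, and AT3G62820, of the invertase and pectin methylesterase inhibitor family. AT5G02540 averaged 11.4 FPKM in WT and 24.0 in the labelled combination without ABA, and 4.82 and 9.70 with it (0.98 ± 0.15, adjusted p = 0.0198). AT3G62820 averaged 4.62 and 8.95, then 5.90 and 11.9 (0.86 ± 0.15, adjusted p = 0.0413). Their calls were lost in 3 and 9 of the 12 fits with a library left out.

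Within single treatments fewer genes passed. Without ABA 14 genes were called, or 0.0735%, with 5 higher and 9 lower, and 39 with the replicate block (0.205%). With ABA 22 were called, or 0.116%, with 5 higher and 17 lower. Of the 37 genes called over both treatments, 10 were called in each treatment, 3 without ABA and not with it, 3 with ABA and not without it, and 21 in neither.

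With ABA, OLEO2, OLEO1, PER1 and EM1 of the seed storage and maturation list were lower in the labelled combination. All 4 passed the filter on low values through the WT libraries with ABA: OLEO1, PER1 and EM1 reached an FPKM of 1 in no other library, and OLEO2 in 1 other. A gene that enters this way had to be higher in WT with ABA, so the number of calls on the list is no support for a fall of the list. Of its 14 members 9 did not pass the filter. Summed over the 14, whatever the filter, the level with ABA was 14.1 to 22.8 FPKM in WT and 5.77 to 6.63 in the labelled combination. Without ABA it was 1.08 to 2.8 and 0.74 to 2.74. These sums include the 4 called genes, so they are no separate support for a fall of the list.

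OLEO2, an oleosin that coats oil bodies, read 6.91, 4.54 and 4.93 FPKM in WT with ABA and 0.98, 0.56 and 1.61 in the labelled combination (−1.67 ± 0.19, adjusted p = 0.00452). OLEO1, a second oleosin, read 2.92, 1.31 and 2.23, then 0.28, 0.40 and 0.24 (−1.24 ± 0.20, adjusted p = 0.0376). PER1, a seed peroxiredoxin, read 4.34, 2.84 and 3.92, then 0.91, 0.54 and 0.99 (−1.37 ± 0.21, adjusted p = 0.0288). In each gene every labelled-combination library was below every WT library. EM1, a late embryogenesis abundant protein, averaged 1.62 and 0.40 (−0.90 ± 0.14, adjusted p = 0.0376, and 0.0621 with the replicate block). Without ABA none of the 4 exceeded 0.66 in any of the 6 libraries. The call of OLEO2 held whichever library was left out, while those of OLEO1, PER1 and EM1 were lost in 8, 6 and 9 of the 9 fits that tested them. The other 3 fits each lacked a WT library with ABA, and without it these genes did not pass the filter.

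RAB18, LEA18 and SAPX were also lower with ABA. RAB18, a dehydrin, read 16.3, 22.8 and 14.3 FPKM in WT with ABA and 8.31, 7.93 and 9.13 in the labelled combination (−0.97 ± 0.16, adjusted p = 0.0465). It was the 1 lower gene of 28 tested on the list of ABA-responsive genes, and none was higher, where 0.0893% of all genes tested were lower. The median of that list was −0.06, against 0.01 over all genes. LEA18, a late embryogenesis abundant protein, averaged 7.00 and 2.56 (−1.13 ± 0.19, adjusted p = 0.0485, and 0.0535 with the block). SAPX, a stromal ascorbate peroxidase, averaged 61.0 FPKM in WT and 49.9 in the labelled combination without ABA, and 48.5 and 29.6 with it, so that its level was lower with ABA in both genotypes (−0.69 ± 0.10, adjusted p = 0.0288). The calls of RAB18, LEA18 and SAPX were lost in 10, 11 and 8 of the 12 fits with a library left out.

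In the other lines with ABA, nrp1 nrp2 read 0.88 to 1.46 FPKM for OLEO2 and 0.47 to 0.98 for PER1, overlapping the labelled combination. FyPP3DN read 8.31 to 38.8 for OLEO2 and 7.91 to 29.9 for LEA18. Over both treatments the labelled combination differed from FyPP3DN by −2.05 ± 0.50 for OLEO2 (adjusted p = 0.0273, lost in 4 of the 12 fits with a library left out) and by −2.25 ± 0.26 for LEA18 (adjusted p = 0.00113).

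**Figure D4:**
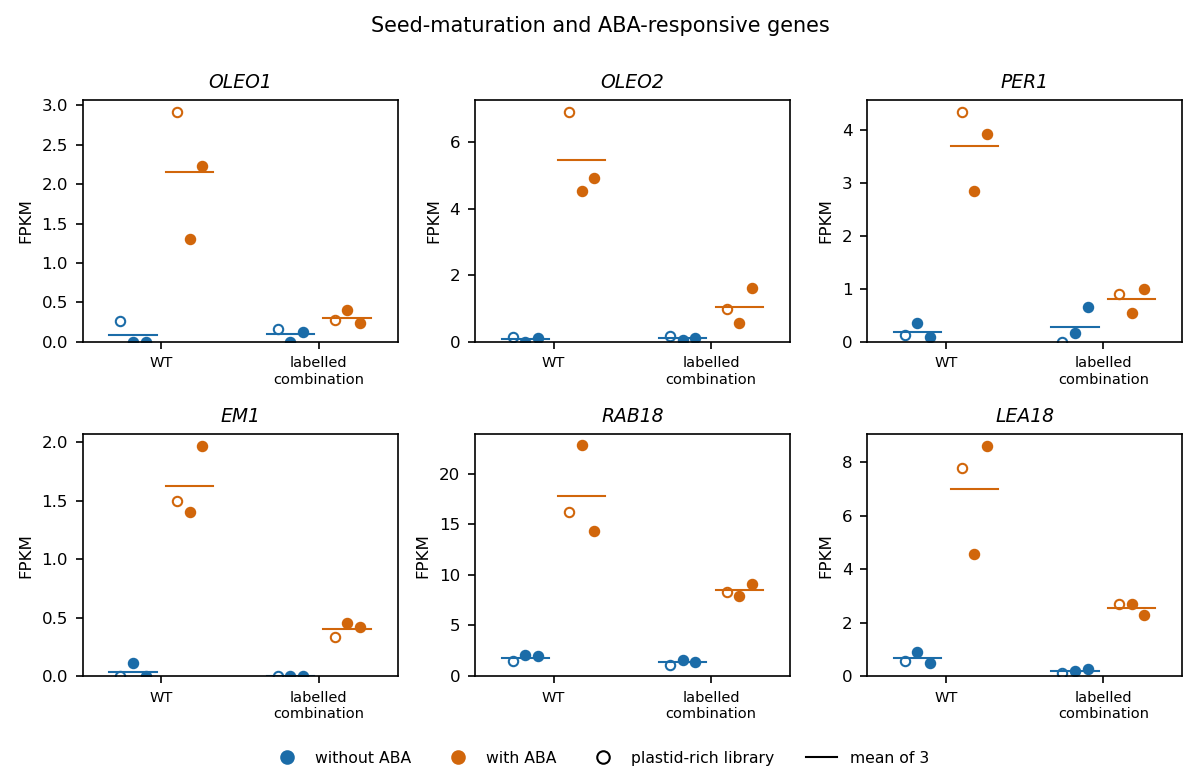
FPKM of 6 late seed and ABA-induced genes in the 12 libraries, with blue points without ABA, orange points with ABA, open points for plastid-rich libraries and bars for the mean of 3. With ABA the 3 labelled-combination libraries lie below the 3 WT libraries in every panel, for example 0.56 to 1.61 against 4.54 to 6.91 for OLEO2, while without ABA no library exceeds 2.08.

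GASA5, a gibberellin-regulated peptide gene, was lower without ABA. It read 7.58, 7.31 and 4.43 FPKM in WT and 1.93, 1.55 and 1.1 in the labelled combination (−1.54 ± 0.19, adjusted p = 0.0079). With ABA both genotypes were low, at means of 0.59 and 0.42. Its call without ABA was lost without replicate 2 of WT and without replicates 2 or 3 of the labelled combination (adjusted p up to 0.079).

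The ABA response itself was not shown to differ between the labelled combination and WT. Of 19035 genes, limma called 0 for the difference of the responses. The lowest adjusted p was 0.571, for OLEO2 (−1.72 ± 0.27), and 407 genes had an unadjusted p under 0.05. GASA5 gave 1.38 ± 0.27 (adjusted p = 1.00). With the replicate block the lowest adjusted p was 0.13, and 852 genes had an unadjusted p under 0.05. The low OLEO2 with ABA and the low GASA5 without it are therefore differences within a treatment, not shown to depend on it.

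Most other gene lists held no call over both treatments. Of 40 lists, covering 538 genes of which 469 were tested, 38 held no call without the block and 36 with it. The lists with calls were the iron list and that of the labelled loci, which holds both DCD-domain genes. Of all genes tested, 44.0% had a difference above 0. Auxin-response genes were mostly above it, with 16 of 20 Aux/IAA and 16 of 19 SAUR genes and medians of 0.06 and 0.23. None of them was called without the block, and 1 SAUR gene was higher with it. All 9 phosphate starvation genes and all 8 sulfur starvation genes tested were above 0 as well, with medians of 0.17 and 0.11 and no call. Without ABA all of them were above 0 too, with medians of 0.24 and 0.27. With ABA 6 of the 9 and 5 of the 8 were, with medians of 0.02 and 0.05, against 0.01 over all genes tested.

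Over both treatments, immunity and cell division genes were mostly below 0. Of 22 salicylic acid and immunity genes tested 3 were above it, with a median of −0.18 and no call. BGL2, a β-1,3-glucanase of this list, read 13.2, 3.38 and 3.67 FPKM in WT without ABA and 2.23, 0.74 and 4.18 in the labelled combination, overlapping it (−1.33 ± 0.33 over both treatments, adjusted p = 0.211). Of 20 cell division genes 1 was above 0 (median −0.13, no call), and of 14 flavonoid and anthocyanin genes 1 was (median −0.21, no call). Without ABA 1 of the 20 cell division genes was above 0 (median −0.23), whereas with ABA 12 were (median 0.01). Medians of the immunity genes were −0.35 without ABA and −0.03 with it, against −0.04 and 0.01 over all genes tested. In core ABA signalling, the 8 clade A PP2C phosphatases tested had a median of 0.03 and the 10 SnRK2 kinases one of 0.01, with no call in either or among the 9 ABA receptors.

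Against the other mutant lines, the labelled combination differed from nrp1 nrp2 in few genes and from FyPP3DN in many. These comparisons share the labelled-combination libraries with the one against WT, so each is given by its own values. Against nrp1 nrp2, 3 of 18996 genes were called, or 0.0158%, and 37 with the replicate block (0.195%). Against FyPP3DN, 1627 of 19042 were called, or 8.54%, with 709 higher and 918 lower, and 1523 with the block (8.0%). In FyPP3DN without ABA the plastid-rich library was replicate 2, so the replicate block did not follow library type in this comparison. With the library type as a block 2753 were called. The split against FyPP3DN was 796 higher and 620 lower after quantile normalization, so the balance of directions depends on the scaling. The plastid-poor libraries alone gave 3 (0.0161%) and 84 (0.45%). Of the 37 genes set apart from WT, 33 were tested against each of the other lines, and 3 were called against nrp1 nrp2 and 24 against FyPP3DN.

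The 3 genes called against nrp1 nrp2 were ALAAT2, ORG1 and AT1G12030, and all 3 were also called against WT. ORG1 read 27.2 to 34.5 FPKM in nrp1 nrp2 without ABA and 117 to 152 with it, and the labelled combination was above it by 0.72 ± 0.10 (adjusted p = 0.0388). That call was lost in 8 of the 12 fits with a library left out, including each of the 6 libraries without ABA, with an adjusted p of up to 0.168. AT1G12030, a DUF506 gene chosen after its values were seen, averaged 0.39 and 2.44 in nrp1 nrp2 and 1.83 and 5.17 in the labelled combination (0.94 ± 0.10, adjusted p = 0.0058). In WT it averaged 0.52 and 2.65. bHLH39 gave 0.93 ± 0.17 against nrp1 nrp2 (adjusted p = 0.123, and 0.0384 with the replicate block).

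Against FyPP3DN, MMZ3 was higher in the labelled combination by 1.98 ± 0.08 (adjusted p = 6.66e-08). ICL, the isocitrate lyase of the glyoxylate cycle, differed by −3.11 ± 0.34 (adjusted p = 0.000729). It read 10.2, 9.65 and 56.1 FPKM in FyPP3DN without ABA, where replicate 3 stood far above the others, and 11.6, 13.5 and 22.5 with it. The means were 1.03 and 1.06 in the labelled combination and 1.63 and 1.97 in WT, and the call held whichever library was left out. On the photosynthesis list 12 of 28 genes were higher than in FyPP3DN, where 3.72% of all genes tested were, and none was lower. Against WT none of the 28 was called.

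**Figure D5:**
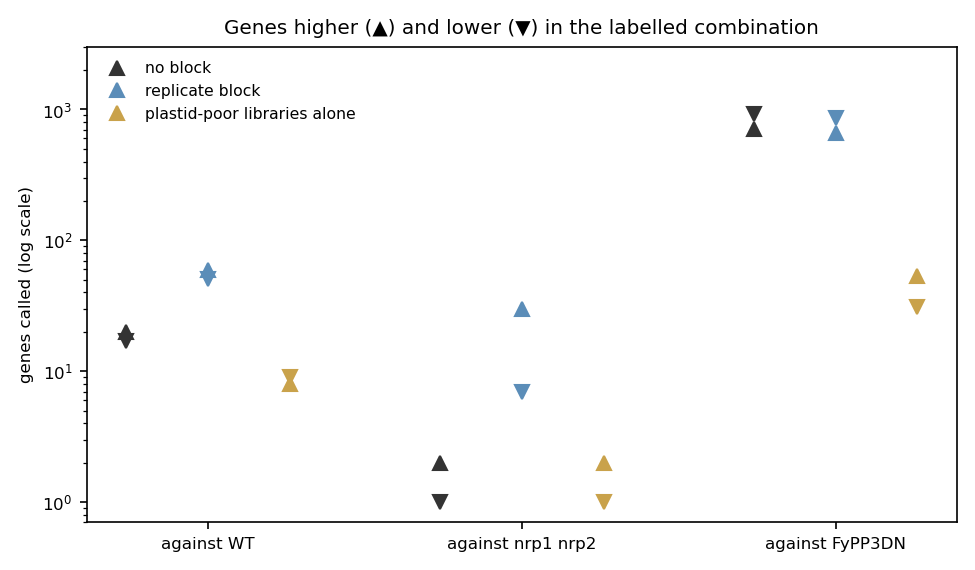
Number of genes called higher (upward triangles) and lower (downward triangles) in the labelled combination against each of 3 genotypes over both treatments, on a log axis, without a block, with the replicate block and in the plastid-poor libraries alone. Without a block the counts are 20 and 17 against WT, 2 and 1 against nrp1 nrp2, and 709 and 918 against FyPP3DN. Against FyPP3DN the replicate block does not follow the library type.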

How the data were processed

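RNA of whole seedlings was sequenced in 24 libraries, 3 for each of 8 groups of genotype and treatment. Per the submitters' processing notes, the tools were Trimmomatic 0.30 and HISAT2 2.0.1 and the genome build TAIR10. The deposited files hold FPKM values per gene, and the authors' counting step is not stated in the labels. No raw counts were used, so depth was read from the steps of low values and counting error enters only through the spread between libraries.

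Values were used as log2(FPKM + 1). Genes with an FPKM of at least 1 in at least 3 of the 12 libraries of a comparison were tested with limma 3.58.1 (R 4.3.3, trended moderation), with treatment as a covariate and Benjamini-Hochberg adjustment over all genes tested. A gene was called at an adjusted p under 0.05. The fit over both treatments against WT, without a block and with the replicate block, was run on simulated data with independent errors. Those data hold no deviation shared by replicate number and do not cover the other comparisons. Within-treatment effects and the difference of the ABA responses came from a fit with 4 groups. The same-numbered libraries deviated together (18 pairs, r from 0.367 to 0.851). Plastid-poor libraries with different numbers did too, such as WT with ABA replicate 2 and labelled combination without ABA replicate 3 (r = 0.615). The numbers are therefore not shown to pair replicates 2 and 3. The fit with the replicate number as a block is given where it changes a call or a count. Library type was set by a plastid share above 1%.

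Named genes were called genes with a symbol, a 6-library mean of 5 FPKM or more in whichever genotype was higher and no overlap within a treatment, up to 12 per direction (5 in other comparisons), with called list members and the labelled loci. Genes outside this are marked as chosen after their values were seen. The comparison, the gene lists and the tests were chosen with earlier results of these data known. Gene symbols, coordinates and promoters came from RefSeq (TAIR10.1).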

Additional observations from a re-analysis of the deposited data

How the results depend on the processing

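Over both treatments against WT the 37 calls became 24 with no filter on low values, 103 with the library type block, 110 with the replicate block, 17 in the plastid-poor and 1 in the plastid-rich libraries alone, and 14 to 30 with a library left out (14 and 24 without replicates 2 and 3 of WT with ABA, 22 and 19 without replicates 1 and 3 of the labelled combination without ABA, and 23, 24 and 21 without its replicates 1, 2 and 3 with ABA). Without ABA the 14 calls became 5 among genes with FPKM of at least 5, 32 with the type block, 39 with the replicate block and 5 to 15 with a library left out (6 without replicate 2 of WT, 9, 5 and 8 without replicates 1, 2 and 3 of the labelled combination, and 9 without replicate 3 of WT or replicate 2 of the labelled combination with ABA). With ABA the 22 became 12 with a pseudocount of 0.1, 7 among genes with FPKM of at least 5, 35 with the type block, 13 in the plastid-poor libraries (8 higher and 5 lower) and 7 to 19 with a library left out (7, 11 and 11 without replicates 1, 2 and 3 of WT with ABA, 11, 8 and 9 without those of the labelled combination with ABA, and 13 without replicate 2 or 3 of WT without ABA). The difference of the ABA responses gave 2 calls with no filter and 0 otherwise. Against nrp1 nrp2 the 3 calls became 1 with a pseudocount of 0.1 or among genes with FPKM of at least 5, 6 with nuclear genes rescaled or robust moderation, 19 with the type block, 37 with the replicate block, 23 in a fit over all 24 libraries, 84 in the plastid-rich libraries and 2 to 15 with a library left out (7 and 15 without replicates 1 and 2 of nrp1 nrp2 with ABA, and 6 without replicate 1 of the labelled combination with ABA). Against FyPP3DN the 1627 became 2753 with the type block, 2451 over all 24 libraries, 84 in the plastid-poor libraries and 748 to 1767 with a library left out (1045 and 1020 without replicates 1 and 2 of FyPP3DN without ABA, 1083 without its replicate 2 with ABA, 751, 1002 and 854 without replicates 1, 2 and 3 of the labelled combination without ABA, and 748 without its replicate 2 with ABA). The causes were not tested, beyond the smaller number of libraries or genes where some were left out.

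For single named genes, 825 alternative values kept direction and call, 286 kept direction and lost the call, and none reversed. The replicate block ended the calls of EM1 and LEA18 with ABA. Plastid-rich libraries alone hold 1 library per group, so no test within a treatment could be made there. Low FPKM values, such as those of the late seed genes, rest on few fragments.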

Other observations

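Some genes passed only with the replicate block, although the correlations do not show that replicates 2 and 3 are paired by number. Those given here were chosen after their values were seen. THAS1, CYP708A2 and ALMT1, known for roles in roots, were lower in the labelled combination in that fit. Of the root hair and other root genes tested, 1 of 9 and 2 of 11 were above 0, with medians of −0.19 and −0.11, and their part in these differences was not tested. THAS1, the thalianol synthase, averaged 4.79 FPKM in WT and 2.55 in the labelled combination without ABA, and 12.2 and 6.87 with it (−0.74 ± 0.14, limma adjusted p = 0.0667, and 0.00151 with the block). CYP708A2, which acts on thalianol, averaged 7.26 and 4.71, then 19.7 and 11.6 (−0.63 ± 0.16, adjusted p = 0.218, and 0.0126 with the block). ALMT1, the root malate exporter, averaged 5.26 and 2.85, then 10.9 and 5.86 (−0.75 ± 0.14, adjusted p = 0.0667, and 0.0157 with the block).

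FLC, the repressor of flowering, read 3.45, 2.18 and 2.09 FPKM in WT without ABA and 7.5, 3.26 and 4.55 in the labelled combination, and 4.18, 1.98 and 2.19 against 6.86, 4.56 and 3.79 with ABA. Each labelled-combination library exceeded the WT library with the same number and treatment (0.71 ± 0.19, limma adjusted p = 0.272, and 0.00184 with the block). Cell wall genes went both ways. EXPA16, an expansin, averaged 0.54 and 1.11, then 3.07 and 6.88 (adjusted p = 0.0672, and 0.0218 with the block), whereas EXPA15 averaged 34.5 and 21.3, then 41.2 and 31.4 (adjusted p = 0.143, and 0.0223 with the block).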
